A study of Mus musculus with 24 samples.

Results

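Regions that carried an H3K9ac peak in every control spheroid library and in no knockout library were collected to describe which parts of the genome they cover and how their signal relates to the libraries without a call. H3K9ac was measured by ChIPmentation, in which the transposase Tn5 inserts sequencing adapters into immunoprecipitated chromatin, in day 5 spheroids of 4T1, a metastatic mouse mammary carcinoma line of BALB/c origin. The 12 peak lists, 3 per group, came from SCR, or scramble, cells (with a guide against EGFP as the non-targeting control), CPT1a knockout cells, CPT1a knockout cells given 5 mM acetate and KAT2a knockout cells. All groups were made from cells with doxycycline-inducible Cas9 by puromycin selection of guide-carrying cells, and the labels do not say which of the guides against a gene a library carried or whether replicates were separate cultures. The medium of the scramble, CPT1a knockout and KAT2a knockout spheroids held 75 µM palmitate, and the label of the acetate group names acetate alone. The authors' figure legend for H3K9ac with and without acetate describes palmitate as present. The peak lists cannot check the knockouts themselves. Peaks of all lists on chromosomes 1 to 19 and X that overlapped by at least 1 bp were merged into 38586 regions. Of these, 494 (1.28%) were called in all 3 scramble libraries and in none of the 9 others and are the members described here. They made up 3.21% of the 15372 regions called in all 3 scramble libraries.

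Acetylation of lysine 9 on histone H3 is placed by acetyltransferases such as KAT2a, uses acetyl-CoA as the donor and marks active promoters and enhancers. At an active gene the mark typically covers the nucleosomes on both sides of the transcription start site (TSS) and fades into the first part of the gene. CPT1a brings long-chain fatty acids into mitochondria for oxidation, a source of acetyl-CoA. Promoter peaks of the epithelial genes Krt8, Krt18, Krt7, Epcam, Cdh1, Cldn4 and Cldn7 were present in all 12 libraries. Krt14 had one in 3 libraries, none of them scramble. No library had a promoter peak at the immune genes Ptprc and Cd3e, the endothelial genes Pecam1, Cdh5 and Kdr, the adipocyte genes Adipoq and Plin1 or the fibroblast gene Pdgfrb. Cd68 had one in 2 scramble libraries and no other, Col1a1 in 11 libraries (2 of them scramble) and Pdgfra in 12.

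Members were selected on the calls in all 12 libraries, so their presence in scramble and absence elsewhere is the rule and not a result, and no test was made on it. Deposited fold enrichment and q values are relative to the background of the same library and are not scaled between libraries. The lists held 16212 to 34370 peaks. The scramble lists were the longest, with 32250 ± 2734 used peaks (SD, n = 3). CPT1a knockout lists held 20219 ± 3713, those given acetate 23174 ± 1235 and KAT2a knockout lists 23525 ± 776. Calling depth is the genome-wide average number of fragments over a base during peak calling, recovered here from the peak values, after any scaling of the ChIP library by the caller. It was 2.10 ± 0.364 for scramble (SD, n = 3), and the other groups had 1.27 ± 0.626 (CPT1a knockout), 1.34 ± 0.632 (the same with acetate) and 1.5 ± 0.423 (KAT2a knockout). Depth and list length therefore moved with the group that defines the members. Applied to the other groups, the rule found 7 regions for the acetate group, 77 for KAT2a knockout and 0 for CPT1a knockout alone, and 28 regions were called in all 9 other libraries and in no scramble library. In these bulk libraries, a mark lost in some cells and a lower level in every cell cannot be told apart.

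**Figure D1:**
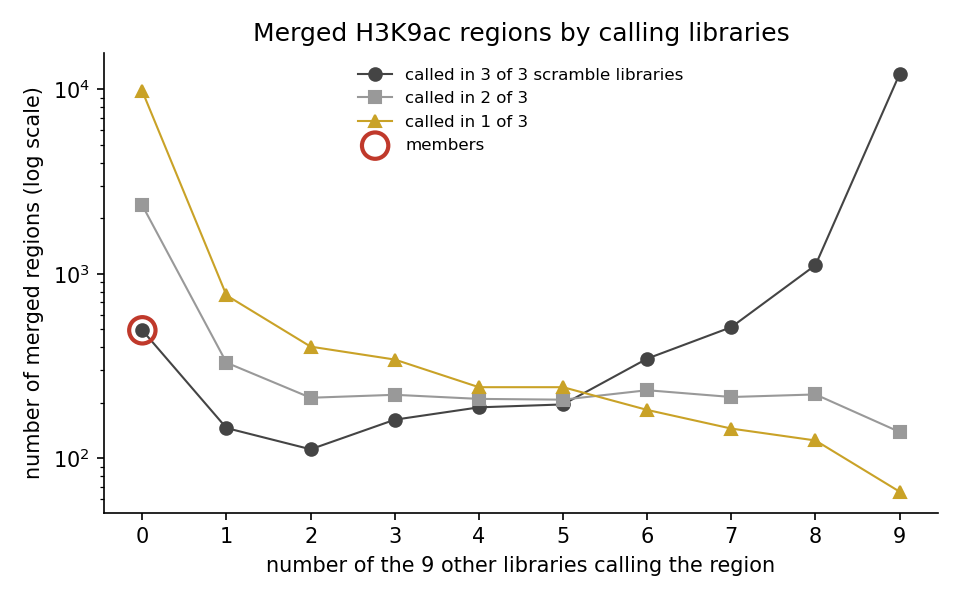
Number of merged regions (log scale) against the number of the 9 other libraries that called them, for regions called in 3, 2 or 1 of the scramble libraries, with lines only joining the points. The circled point marks the 494 members, next to 146 regions that also had 1 other call and 12098 regions called in all 12 libraries.

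Members are ordered below by their lowest rank in any scramble list, where the rank of a peak is the percentile of its -log10 p within the list. Sequences of 2 of the first 4 show what strong members are made of. The sequences are the 200 bases of the GRCm38 plus strand around the mean scramble summit, in lower case, with matches to the AP-1 motif TGANTCA in capitals. Wdr45b marks an intronic member and 1520401A03Rik a member 4290 bp from that gene's TSS, outside protein-coding genes.
Wdr45b, chr11:121339163-121339362: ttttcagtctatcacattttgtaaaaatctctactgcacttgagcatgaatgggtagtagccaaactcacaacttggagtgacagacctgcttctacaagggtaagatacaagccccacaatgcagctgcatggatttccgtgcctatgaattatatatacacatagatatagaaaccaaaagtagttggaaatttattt
1520401A03Rik, chr17:23701562-23701761: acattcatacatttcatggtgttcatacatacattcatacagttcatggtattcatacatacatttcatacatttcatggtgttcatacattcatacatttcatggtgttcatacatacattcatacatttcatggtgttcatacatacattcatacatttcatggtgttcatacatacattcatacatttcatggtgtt

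The second set holds members high in the order within 1 kb of a coding TSS, all of them intronic in the gene named.
Pxn, chr5:115519797-115519996: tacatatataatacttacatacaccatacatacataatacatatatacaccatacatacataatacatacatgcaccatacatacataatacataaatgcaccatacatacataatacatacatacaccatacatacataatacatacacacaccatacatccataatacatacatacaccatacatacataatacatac
Pigb, chr9:73037512-73037711: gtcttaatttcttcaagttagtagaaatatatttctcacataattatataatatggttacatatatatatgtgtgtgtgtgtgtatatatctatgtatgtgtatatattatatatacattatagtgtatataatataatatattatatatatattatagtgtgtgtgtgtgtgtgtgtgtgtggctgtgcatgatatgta
Txndc15, chr13:55716245-55716444: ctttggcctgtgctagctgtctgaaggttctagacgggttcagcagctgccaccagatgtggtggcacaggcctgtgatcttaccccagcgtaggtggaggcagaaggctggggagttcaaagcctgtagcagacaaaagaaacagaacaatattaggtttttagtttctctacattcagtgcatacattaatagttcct

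The third set holds the first members in the order away from promoters whose printed 200 bases contain TGANTCA, a narrower window with another centre than the 300 bases searched for motifs below, and free of annotated UTRs. The window named after Flot2, the gene with the nearest TSS, lay in an intron of the neighbouring gene Dhrs13. The other two were intronic in the gene named.
Flot2, chr11:78036106-78036305: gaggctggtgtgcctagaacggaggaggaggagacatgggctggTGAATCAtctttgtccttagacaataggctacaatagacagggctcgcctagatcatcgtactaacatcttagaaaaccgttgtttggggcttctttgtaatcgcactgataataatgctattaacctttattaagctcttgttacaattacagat
Gnaq, chr19:16136001-16136200: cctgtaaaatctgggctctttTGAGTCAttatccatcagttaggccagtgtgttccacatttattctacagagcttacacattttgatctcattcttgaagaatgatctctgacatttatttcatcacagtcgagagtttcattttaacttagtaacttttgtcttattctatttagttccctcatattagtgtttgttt
Ncapd2, chr6:125188914-125189113: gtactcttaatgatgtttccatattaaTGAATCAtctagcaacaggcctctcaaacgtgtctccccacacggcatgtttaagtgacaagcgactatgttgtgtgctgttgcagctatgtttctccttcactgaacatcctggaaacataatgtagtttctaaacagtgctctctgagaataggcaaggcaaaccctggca

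Several of the members first in the order were tandem repeats. When the 300 bases around the strongest summit were compared with themselves shifted by 1 to 60 bases, at least 60% of bases matched at the best shift in 5 of the first 12 members (41.7%) and 8 of the first 50 (16.0%). The same held for 7 of the other 444 members (1.58%) and for 393 of all 38586 regions (1.02%). The first member in the order, an intergenic one on chromosome 2, matched itself at a shift of 24 bases in 86.2% of positions. The member in an intron of Bsn, whose nearest TSS is that of Apeh, matched itself at a shift of 21 bases in 93.2% of positions, and the ones at 1520401A03Rik, Pxn and Acsl3 did so in 81.1% at 30 bases, 74.1% at 26 bases and 65.8% at 8 bases. All 5 of these windows were poor in GC, from 18.7% at that intergenic member to 30.7% at Pxn.

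The first member in the order, the intergenic one on chromosome 2, had a fold enrichment over background of 8.36, 8.91 and 7.36 in scramble replicates 1, 2 and 3. Its -log10 q was 18.2, 19.9 and 15.4, and its 3 summits lay within 6 bp. The nearest peak of any other library was 849214 bp away, so this member stood alone in its surroundings. It was 96.9% soft-masked, meaning marked as repeat in the reference sequence, with a GC content of 19.4%.

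Acsl3, which activates long-chain fatty acids by joining them to coenzyme A, carried the next member, 96 bp from a TSS and overlapping an annotated exon. Its fold enrichment was 7.08, 9.08 and 8.87 in scramble replicates 1, 2 and 3. The -log10 q was 13.1, 19.7 and 19.3. The nearest peak of the 9 other libraries was 30572 bp away, while another TSS of Acsl3 had a promoter peak in all 12 libraries.

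Wdr45b, an autophagy protein, held an intronic member at chr11:121338935-121339631, 1557 bp from its TSS, with fold enrichments of 8.70, 7.34 and 7.17. The member next to 1520401A03Rik, chr17:23701336-23702049, had fold enrichments of 9.92, 5.87 and 5.20, with replicate 1 above the other 2. The Bsn member, chr9:108100135-108100767, went the other way, with 4.91, 5.87 and 8.21. Bsn encodes a presynaptic scaffold protein, and Apeh an enzyme that removes acylated amino acids from peptides.

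Lsm1, a subunit of the ring that starts mRNA decapping, had a member 2059 bp from its TSS with fold enrichments of 4.30, 7.31 and 8.00. Cep152, needed for centriole duplication, had one at 1884 bp with 6.23, 6.96 and 6.35. Srp68, a subunit of the signal recognition particle, had one at 2620 bp with 5.40, 5.78 and 5.05. The values of Cep152 and Srp68 differed little over the scramble libraries. The member of Dhrs13 next to Flot2, a lipid raft protein, had 6.4, 5.78 and 6.27, and Tex21 had 9.21, 6.96 and 8.62 at 4421 bp from its TSS. Psma2, a proteasome core subunit, had 7.70, 6.62 and 10.00 at 1083 bp from a TSS.

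At promoters, after Acsl3, the order was led by Pxn (paxillin, an adaptor of focal adhesions), Pigb (a mannosyltransferase of GPI anchor synthesis), Txndc15, Atpaf1 (an assembly factor of the mitochondrial ATP synthase), Nlk (a kinase of Wnt signalling), Sfr1 (a cofactor of homologous recombination) and Smox (spermine oxidase). Pxn had fold enrichments of 8.31, 5.49 and 4.00 in scramble replicates 1, 2 and 3, the widest spread of these. Pigb had 4.41, 5.78 and 4.76, Txndc15 5.72, 6.63 and 5.81, and Atpaf1 5.22, 6.55 and 6.0. Nlk had 6.23, 6.60 and 6.42, Sfr1 5.11, 6.27 and 5.86, and Smox 8.09, 6.03 and 6.93. The distance from the member to the nearest TSS ranged from 200 bp at Pxn to 918 bp at Txndc15, so these members sat beside a start site and not on it. The nearest peak of another library was 38 bp away at Txndc15 and 49 bp at Smox, and 503 bp away at Nlk.

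Most members were weak peaks of their lists. The median fold enrichment was 4.75, 4.53 and 4.83 in scramble replicates 1, 2 and 3, against 5.59, 7.09 and 6.21 over the whole lists. The median rank percentile by -log10 p was 40.2, 20.5 and 32.7, and 121, 4 and 74 members ranked in the upper part of the list, above the 50th percentile. In scramble replicate 2 nearly all members were therefore in the weaker part. The peaks at members had median widths of 448, 276 and 358 bp, while the list medians were 620, 686 and 585 bp. The summits agreed in part: the outermost of the 3 scramble summits lay a median of 188 bp apart, and within 150 bp in 191 members.

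Just inside the rule, the lowest of the 3 scramble -log10 q values of a member had a median of 4.99 and reached down to 2.06, near the deposited minimum of 2.00. Just outside, 146 regions were called in all 3 scramble libraries and in 1 other, whose -log10 q had a median of 5.30 and reached down to 2.14. The single other call came from KAT2a knockout replicate 2 in 38 of these and from CPT1a knockout with acetate replicate 3 in 35, and never from CPT1a knockout replicate 3. The calling depth of that library was the lowest (0.554), because its ChIP signal corresponded to a scaling by 0.378 before calling, and its coverage before that scaling was 1.46, above that of 3 other libraries. A further 2345 regions were called in 2 scramble libraries and no other.

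Most members lay beside promoters. The centre of 215 members (43.5%) lay 1 to 5 kb downstream of the nearest coding TSS and that of 122 (24.7%) lay 1 to 5 kb upstream, against 17.9% and 12.4% of all merged regions. Only 51 (10.3%) were centred within 1 kb, against 32.3% of all regions and 72.3% of those called in all 12 libraries. By edge distance, 93 members (18.8%) lay at promoters, 282 (57.1%) in gene bodies away from promoters and 119 (24.1%) were intergenic, against 36.9%, 35.5% and 27.6% of all regions. The promoter share of members depended on the settings, from 7.76% with peaks within 500 bp merged to 48.6% with promoters of 2 kb. An annotated exon was overlapped by 94 members (19%), and by 37.4% of all regions. Beyond 50 kb of a coding TSS lay 23 members (4.66%), inside genes or between them, against 9.47% of all regions.

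**Figure D2:**
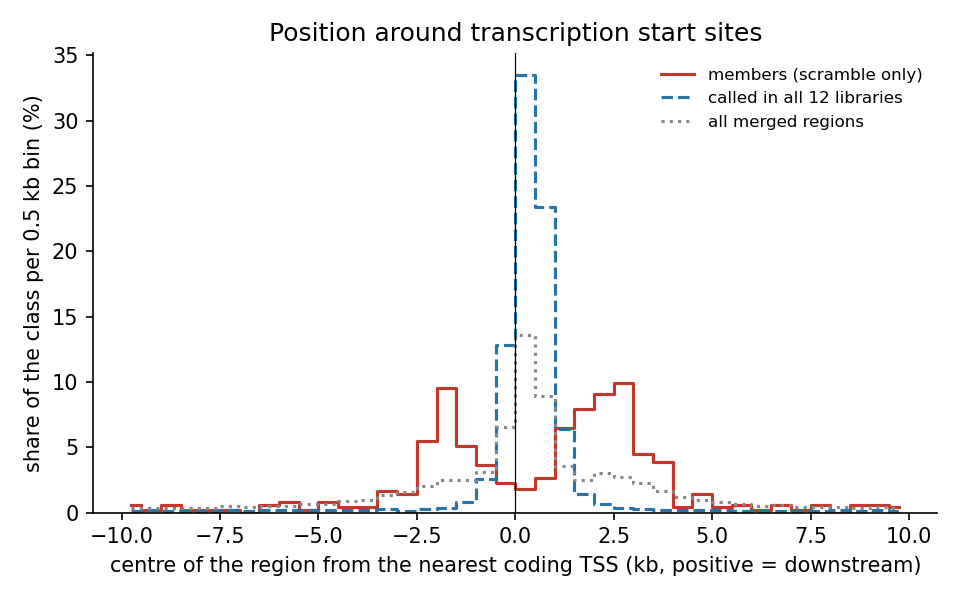
Share of members, of regions called in all 12 libraries and of all merged regions in each 0.5 kb bin of the distance (kb) from the nearest coding TSS to the region's centre, with positive values downstream in the direction of transcription. Members form shoulders on both sides, with 9.51% in the bin from 2 to 1.5 kb upstream and 9.92% in the bin from 2.5 to 3 kb downstream, and only 1.82% in the first bin downstream, which holds 33.5% of the regions called in all 12 libraries.

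The genes next to members had H3K9ac at their promoters in every group. Of 378 genes whose TSS was the nearest one to a member and within 5 kb, 366 (96.8%) had a promoter peak in all 12 libraries, against 49.5% of the 21728 protein-coding genes annotated. The nearest region called in all 12 libraries lay a median of 259 bp from a member and within 1 kb of 364 members (73.7%). For all regions not called in all 12 libraries the median was 5106 bp, and 32.0% were within 1 kb. Regions called in 2 scramble libraries and no other were close to the members in this, with 441 bp and 65.6%. Within 5 kb of 417 members (84.4%) there were 401 regions called in all 12 libraries, here called common regions. Of all common regions 82.4% were at promoters, and of these 401 regions 91.0% were. Their strongest fold enrichment ranked at a median percentile between 62.5 and 69.4 among all common regions, with the scramble libraries (64.4 to 66.6) inside the range of the others.

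Neighbouring peaks ended nearer to members in scramble than in the other libraries. Leaving out the peaks of the member itself, the nearest peak of the same scramble library lay a median of 240, 472 and 332 bp from a member. The medians were 980, 900 and 1314 bp for CPT1a knockout, 772, 950 and 696 bp after acetate and 772, 646 and 997 bp for KAT2a knockout, so the scramble libraries did not overlap with any other. The group means were 348 ± 117 bp, 1064 ± 220 bp, 806 ± 131 bp and 805 ± 178 bp (SD, n = 3 each). This measure is not independent of the rule, which asks for no call of the other libraries in the member. Scramble replicates 2 and 3 (depths of 1.87 and 1.90) stood at 472 and 332 bp, with lists of 29153 and 33268 used peaks. Of like depth, KAT2a knockout replicate 2 and CPT1a knockout with acetate replicate 3 (1.81 and 1.91) stood at 646 and 696 bp. Their lists were shorter, with 24091 and 24594 used peaks. The part of depth and list length in the gaps was not tested. The common regions beside members were covered by peaks over a median of 2805 to 3326 bp in scramble and 1667 to 2543 bp in the other libraries, and all common regions showed the same order, with 2386 to 2911 bp and 1395 to 2274 bp.

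**Figure D3:**
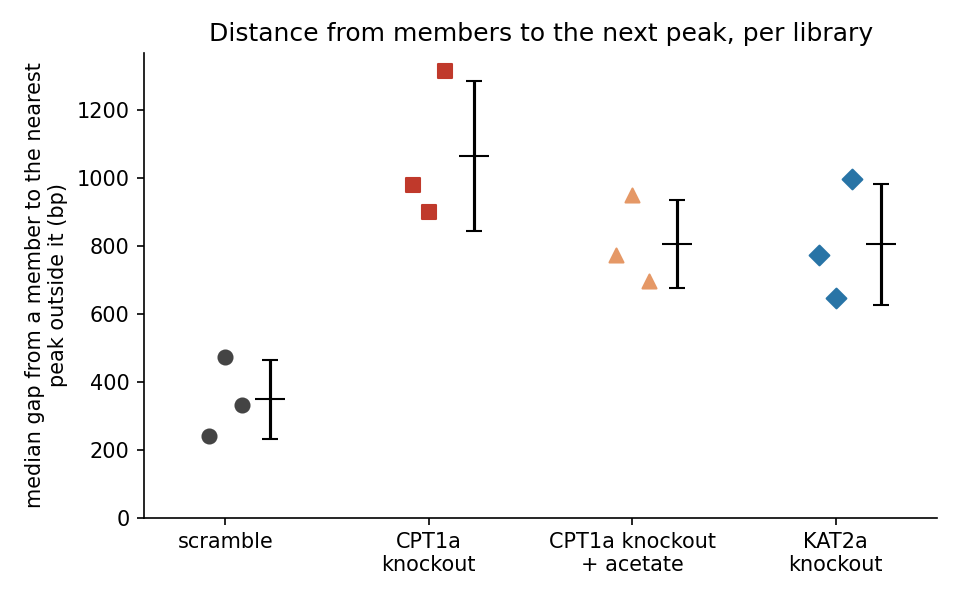
Median gap in bp from the 494 members to the nearest peak outside the member, with 1 point per library and the mean ± SD of each group (n = 3) beside the points. The scramble libraries lie between 240 and 472 bp, below the other 9 libraries at 646 to 1314 bp.

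Members were poor in GC and CpG. Their median GC content was 40.2% (quartiles 37.4% and 43.1%), against 47.2% over all regions and 49.9% for regions called in all 12 libraries, and the 28 regions called only outside scramble stood at 64.7%. The low value was present in each kind of location, with a median of 42.3% at promoters, 40.2% in gene bodies and 38.8% between genes, against 49.7%, 44.5% and 46.0% for all regions of the same kind. The observed to expected ratio of CpG had a median of 0.193 in members, 0.284 over all regions and 0.489 in regions called in all 12 libraries. In regions called in 2 scramble libraries and no other it was 0.175. In the 300 bases around the strongest summit, members held a median of 2 CpG, and 81 (16.4%) held none, against 7.31% of all regions. Soft-masked repeats made up a median of 25.0% of a member and 15.8% of a region overall. Runs of a dinucleotide of at least 20 bases were present in 38 member windows (7.69%) and in 4.61% of all.

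**Figure D4:**
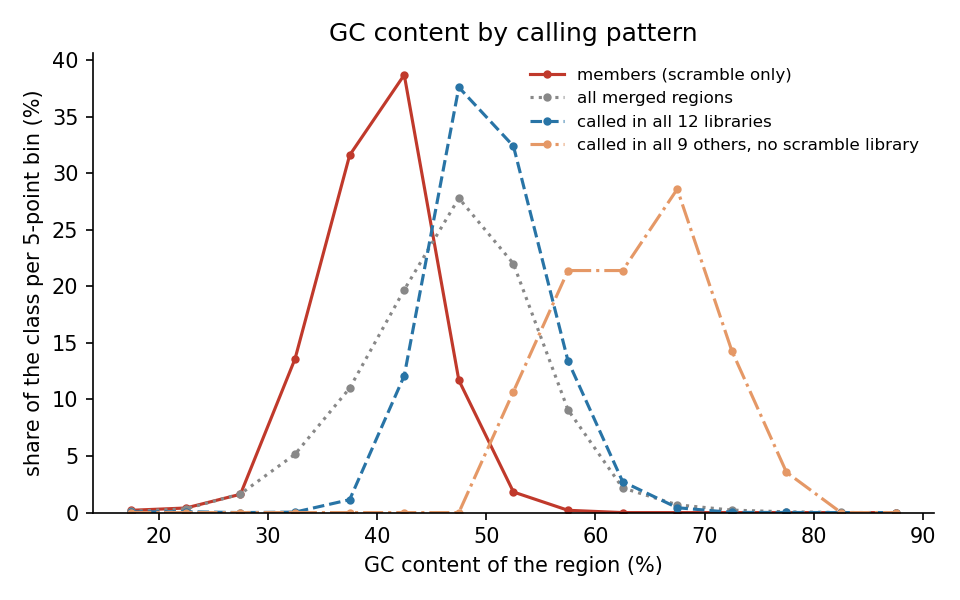
Share of members and of 3 other classes of regions in each 5-point bin of GC content (%). Members peak between 40 and 45% (38.7% of them), while regions called in all 12 libraries peak between 45 and 50% and the 28 regions called in all 9 other libraries and no scramble library between 65 and 70%.

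GC content also moved with the libraries as a whole. Over the 12098 regions called in all 12 libraries, the Spearman correlation across regions of fold enrichment with GC content was -0.321 ± 0.0480 in scramble (SD, n = 3), -0.0559 ± 0.0355 for CPT1a knockout, -0.0902 ± 0.0326 after acetate and -0.123 ± 0.00624 for KAT2a knockout. The scramble libraries lay between -0.362 and -0.268 and the other 9 between -0.128 and -0.0150, without overlap. These regions are shared by all libraries and are not independent replicates. The median fold enrichment at the same regions was 16.5 ± 0.306 in scramble, 22.6 ± 5.89 for CPT1a knockout, 21.7 ± 1.43 after acetate and 25.2 ± 2.21 for KAT2a knockout. The part of these library-wide differences in the choice of members was not tested.

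GC-rich motifs were found in a smaller share of member windows than of all windows. The GC box GGGCGG was present on either strand in 7 members (1.42%) and in 15.9% of all regions, and the ETS motif CCGGAAG in 6 (1.21%) and 2.68%. The CCAAT box CCAAT was present in 148 members (30.0%) and 27.1% of all regions, and the RUNX motif TGTGGT in 89 (18%) and 18.8%. TGANTCA, bound by AP-1, was found in 31 members (6.28%) and 7.97% of all regions, the TEAD motif GGAATG in 58 (11.7%) and 14.2%, and the NF-kB core GGANTTTCC in 4 (0.810%) and 1.07%. The E-boxes CACGTG and CAGCTG were present in 18 (3.64%) and 48 (9.72%) members, against 4.37% and 14.8% of all regions. A match describes the letters alone.

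The signal of members in scramble was set beside the depth of the libraries without a call. Pileup and background of each scramble peak were multiplied by the ratio of depths and the -log10 p was recomputed. The minimum peak width and sampling noise were not modelled. These scramble peaks also chose the members, so their values may be high for that reason, which the scaling does not correct. The part of depth in the missing calls was not tested. In the 6 knockout libraries with a depth of at least 1.45, between 416 and 484 members (84.2% to 98.0%) would have reached the lowest -log10 p of the list from every scramble library. The share was 35.8% (177 members) in KAT2a knockout replicate 3, 5.06% (25) in CPT1a knockout with acetate replicate 2 and 2.63% (13) in CPT1a knockout replicate 3. For reference, 2226 regions were called in all 3 scramble libraries with a -log10 p within the 5th to 95th percentile of the members in each. Of those whose scaled signal reached the threshold, the 6 deeper libraries called 62.4% to 74.4%. Of those whose scaled signal did not reach it, 448 of 928 (48.3%) were still called in KAT2a knockout replicate 3, 833 of 1988 (41.9%) in CPT1a knockout with acetate replicate 2 and 400 of 2190 (18.3%) in CPT1a knockout replicate 3. Members within this -log10 p range are among the 2226 regions and lack these calls by the rule, which lowers all of these shares. Nothing is read from the absence of calls at members. Only 12 members (2.43%) reached the threshold of all 9 lists.

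**Figure D5:**
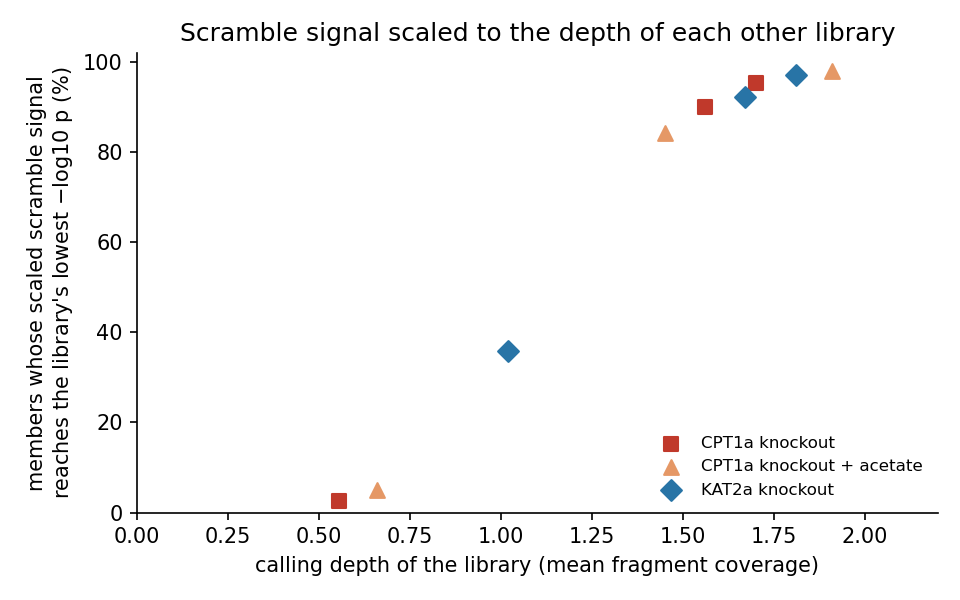
Share of the 494 members (%) whose signal in every scramble library, scaled to the calling depth of the library on the horizontal axis (mean fragment coverage), reaches the lowest -log10 p of that library's list, with 1 point per knockout library. The 6 libraries at depths of 1.45 and above lie between 84.2% and 98.0%, and the 3 shallower ones at 35.8%, 5.06% and 2.63%. The scramble peaks that were scaled also chose the members.

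The number of members changed with depth and list length. With all lists scaled to a depth of 0.55 and peaks kept at a -log10 p of at least 5, 10 regions met the rule (471 with that threshold and no scaling), and 28 did when each list was reduced to its 16201 strongest peaks. The median GC content stayed low in both, at 34.5% and 35.3%. Of the 10 regions, 2 overlapped members, the intergenic one on chromosome 2 and the one in Wdr45b.

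Genes of the lists fixed for fatty acid use, NF-kB signalling, cell identity and related functions were near 0 to 2 members per list. Of all regions, 1.28% were members. With 44 to 114 regions, each list is too small to tell such counts, 0 included, from that share. Acsl3 was the only one from fatty acid uptake and oxidation, out of 68 regions near genes of that list (1.47%, beside 1.28% overall). The NF-kB list had 2 of 98 regions (2.04%), near Nfkb1 and Ptgs2. Nfkb1, the gene of the p105 and p50 subunits, had a member 3104 bp from its TSS with fold enrichments of 3.90, 3.55 and 5.20 in scramble replicates 1, 2 and 3. Ptgs2, the inducible cyclooxygenase, was 30893 bp from a member with 6.87, 5.13 and 4.91. Jun, a subunit of AP-1, was 45435 bp from one with 4.96, 4.53 and 4.02. Krt8, a keratin of luminal epithelium, held one 3814 bp from its TSS with 5.32, 2.91 and 3.40. No member was near genes of the lists for histone acetylation (80 regions), epithelial-mesenchymal transition and adhesion (114), cytokines and chemokines (44) or receptor signalling (106).

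Some members lay together. In 8 places 3 or more members followed each other within 100 kb, with 34 members in all. The same count over all regions is not given here, so no excess is read from it. The densest place, chr19:8796136-8987203, held 9 members over 191068 bp near Polr2g (a subunit of RNA polymerase II), Ubxn1, Lbhd1, Gm49403, Ganab (a subunit of glucosidase II of the endoplasmic reticulum), Tut1 and Ahnak. The fold enrichments of the one at Polr2g were 5.10, 5.94 and 5.65, and those of the one next to Ahnak 7.66, 4.25 and 6.69. Promoter peaks of these genes were called in all 12 libraries except at Gm49403, with 3. Places on chromosome 17 held 5 members near Wdr27, 9030025P20Rik, Gm3435 and Ermard and 4 near Cldn9, 1520401A03Rik and Flywch1, and another on chromosome 19 held 4 near Sdhaf2 and Tmem216. The other 4 places held 3 members each, near Vash2 and Flvcr1, near H3f3b, Unc13d and Wbp2, near Slc25a10, P4hb and Alyref, and near Rad9b, Gpn3 and Arpc3. H3f3b encodes histone H3.3, and Alyref an mRNA export factor.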

How the data were processed

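Per the labels, H3K9ac ChIPmentation libraries of 4 groups with 3 replicates each were used, and groups came from the labels alone. According to their methods, the authors trimmed reads and aligned them to mm10 with BWA, while the submitters' processing notes name Bowtie2, SAMtools, deepTools and MACS2 with no version, so which aligner made the lists is not settled. Duplicates were removed with Picard. The deposited lists have the MACS2 narrowPeak layout, 1 list per library, with a fold enrichment (the ratio of summit pileup to local background under the MACS2 formulas), a -log10 p and a -log10 q of at least 2.00 for each peak. The 12 input libraries and the exogenous chromatin were not analysed here, so the total amount of H3K9ac was not measured. The labels and methods give different catalogue numbers for the antibody.

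Whether the inputs were used in calling is not given in the sources used here, so the background may come from the input or from the ChIP library itself. The values correspond to a scaling of the ChIP signal by 0.378 to 1.0 before calling, and calling depth is the depth after it. Peaks on chromosome Y were set aside. A library called a region when 1 of its peaks overlapped it. Calling depth, pileup and background were recovered by inverting the MACS2 formulas for peaks with a -log10 p below 60, after checks on simulated data, and were obtained for at least 99.0% of these peaks. No read depth was stated, so counting intervals per peak could not be given. Coding genes, TSS and UTRs came from GENCODE vM21, and sequence from GRCm38 (RefSeq, the build of the files). Python 3 scripts with numpy, pandas and scipy did all steps. No test was made on the members, because all 12 libraries chose them, and medians and shares are given beside those of all regions.

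The members and lists were chosen with earlier results of these data known. Named were the 12 members first in the order, the 8 first at promoters, the 8 first in gene bodies, those whose nearest coding TSS within 100 kb belongs to a listed gene, and places with 3 or more members. The tandem repeat measure and its limit of 60% were chosen after the sequences were seen. Alternatives changed the merging distance, the cover, the q threshold, list length, depth, promoter width, the order and the libraries used. Some items the naming rule covers are not reported here.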

Additional observations from a re-analysis of the deposited data

How the results depend on the processing

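The number of members was 494. Merging peaks within 500 bp gave 116, asking for a -log10 q of at least 5 gave 280, lists of equal length gave 28, an equal depth of 0.55 gave 10, an equal depth of 1.4 gave 223 (with 3 knockout libraries left out), and asking for only 2 of 3 scramble libraries gave 2839. Asking for peaks over at least 0.5 of the region gave 372, and allowing 1 other call gave 640. Both equal depths also required a scaled -log10 p of at least 5, and that threshold without scaling, added after seeing the data, gave 471. The stricter q kept 231 members (46.8%), the depth of 1.4 kept 193 (39.1%), equal lengths kept 7 (1.42%) and the depth of 0.55 kept 2 (0.405%). Leaving out 1 scramble library, which loosens the rule by construction, gave 1011 (replicate 3), 1070 (replicate 1) and 2415 (replicate 2) regions, so replicate 2 limited the number most. Leaving out 1 of the other libraries gave 494 to 543, and leaving out the 3 shallowest together, an alternative chosen after seeing the data, gave 514.

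The median GC content of 40.2% became 38.2% with peaks within 500 bp merged, 41.1% with the cover of 0.5, 35.3% with equal lengths and 34.5% at a depth of 0.55, and lay between 39.0% and 41.3% without 1 library. Taken over the members' peaks in each scramble library, the median GC content was 39.7% with an SD of 0.30 points (n = 3). Every value lay below the 47.2% of all regions. The promoter share was 18.8% (95% exact binomial interval 15.5% to 22.6%, counting error only). That interval takes members as independent, though some lie together, and does not measure variation between libraries. The share became 7.76% with peaks within 500 bp merged, 33.9% with the cover of 0.5, 10.7% with equal lengths and 10.0% at a depth of 0.55. It was 48.6% with promoters of 2 kb, and lay between 15.2% and 19.4% without 1 library. Ordered by fold enrichment, 5 of the 12 members first in the order remained among the first 12. No paired analysis was made, since no test was made.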

Other observations

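Members were spread unevenly over chromosomes. Chromosome 19 held 32 members, 5.82% of its regions called in all 3 scramble libraries, followed by chromosome 17 with 35 (4.50%), chromosome 11 with 54 (4.18%) and chromosome 8 with 34 (4.05%). Chromosome X held 3 (0.811%), chromosome 18 held 5 (1.27%) and chromosome 10 held 14 (1.88%), beside 3.21% overall. No region of chromosome Y met the rule.

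Regions called in 2 scramble libraries and no other, 2345 in number, had a median GC content of 39.1% and 939 of them lay 1 to 5 kb downstream of a coding TSS, while 24.8% lay as far upstream. The 146 regions with 1 additional call outside scramble had a median GC content of 42.3%, and 19.2% and 21.2% lay in those positions.

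The balance between regions called only in scramble and regions called only outside it turned with some settings. In the deposited lists there were 494 of the first kind and 28 of the second, called in all 9 other libraries. A -log10 q of at least 5 gave 280 and 30, and a -log10 p of at least 5 gave 471 and 28. The settings of equal depth below also keep only peaks with a scaled -log10 p of at least 5. When the 9 libraries with a depth above 1.4 were scaled down to it, the numbers were 223 and 313, the latter called in all 6 knockout libraries left. With lists of equal length they were 28 and 134, and at a depth of 0.55 they were 10 and 280. The median GC content of the first kind lay between 34.5% and 40.2% and that of the second between 57.2% and 64.7% in these 6 settings. KAT2a knockout alone had 77 regions in the deposited lists, 63 with lists of equal length and 105 at a depth of 0.55.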
